A study of Arabidopsis thaliana with 4 samples.

Results

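The plastid genome of Arabidopsis thaliana carries genes for core subunits of the photosynthetic complexes, and 43 of them are described here. They are the genes of the chloroplast genome named psa (photosystem I, 5 genes), psb (photosystem II, 15), pet (cytochrome b6f complex, 6), atp (ATP synthase, 6) or ndh (NDH complex, 10), and rbcL (the large subunit of Rubisco, 1), each with a probe set of a single gene name and chosen without a filter on signal. They make up 43 of the 22746 probe sets that are not array controls, and 43 of the 69 single-gene probe sets for the plastid genome. The plastid gene ndhB fits the same names but its probe set carries a pair of gene numbers, so it is not among the 43.

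The cells were mesophyll protoplasts, leaf cells freed of their walls, isolated from soil-grown plants whose strain is not given in the sources used here. They were transfected with 1 mg of a KIN10-expressing plasmid (2 arrays) or of control plasmid DNA (2 arrays) and kept in the light for 6 h, and RNA was measured on Affymetrix GeneChips. KIN10 (AT3G01090) is a catalytic subunit of SnRK1, a kinase active at low energy. It was made from a transiently introduced plasmid, so the sample mixes cells that took up DNA and cells that did not, in shares the labels do not give. The control and KIN10 transfections of 1 number form an experiment with its own plants (36, pooled), growth chamber, DNA, operator and array facility. With bulk RNA from pooled cells, fewer cells with a transcript and less RNA per cell cannot be told apart.

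The plastid-encoded subunits form the cores of complexes whose other subunits are made from nuclear genes and imported. Light drives electrons from photosystem II through the cytochrome b6f complex to photosystem I. The proton gradient built on the way powers the ATP synthase, the NDH complex returns electrons from ferredoxin to the plastoquinone pool, and Rubisco fixes carbon dioxide. Most of these genes are transcribed by a bacterial-type plastid RNA polymerase, often several genes on 1 transcript that is then cut and trimmed, and their transcripts do not carry the long poly(A) tails of nuclear mRNAs.

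Array-wide facts that bear on these genes were as follows. Median signals of the arrays lay between 275.5 and 521.8. Of the 43 genes 41 had a signal above the array's median on all 4 arrays, petG and ndhF being the exceptions, and none of the 11 mesophyll marker genes listed had a single-gene probe set, so the cell type was not checked against them. Of 4 guard cell markers 2 were measured, with summed signals of 723 and 212.3 on the KIN10 arrays and 701.3 and 322.8 on the control arrays of experiments 1 and 2, and none listed for epidermis, phloem and bundle sheath, or trichomes. The sum hides opposite directions. After centring, the log2 change with KIN10 was -0.38 and -0.52 for FMA and 0.98 and 0.44 for AT1G22690, and neither was called. The ratio of the 3′ to the 5′ probe set of GAPDH was 2.75 and 1.25 with KIN10 and 1.11 and 0.777 with control DNA in the older control design, but 1.04 and 1.12 with KIN10 and 1.12 and 0.989 with control DNA in the later one. For actin the older design gave 3.85 and 2.12 with KIN10 and 8.76 and 8.67 with control DNA, the other direction, and the later one 2.31 and 2.23 with KIN10 and 2.52 and 1.97 with control DNA. The 25S rRNA control probe set gave 906.5 and 107.5 with KIN10 and 775.4 and 137.6 with control DNA in experiments 1 and 2. The part of these differences in the results was not tested. KIN10 was not among the single-gene probe sets analysed here, and its transcript was therefore not used to check the labels.

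No plastid-encoded photosynthesis gene passed the test for a change with KIN10. Of the 43, 0 were higher and 0 lower at an adjusted p under 0.05 (limma with the experiment as a block, Benjamini-Hochberg over 22746 probe sets), where 14.9% of all probe sets were called, 7.43% higher and 7.48% lower. On simulated data with the same layout of arrays more of the calls were false than the threshold allows. The simulated spread and number of changed probe sets were set by hand and differ from these data. The calls named below may thus be less certain than their adjusted p, by an amount that is not known. At an unadjusted p under 0.05, 2 were higher (psbA and ndhJ) and 1 lower (atpA), against 13.4% and 12.5% of all probe sets. The median log2 change of the 43 was 0.34, with a range of -1.58 to 0.89, and that of all probe sets was 0.07. The standard errors of the 43 ran from 0.25 to 0.87 with a median of 0.40, about as large as the median change itself. Over all probe sets the median SE was 0.42. For 18 of the 43 the SE exceeded the size of the change, a count not made over all probe sets.

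For 7 of the 43 genes the call depended on the processing: psbA, ndhJ, atpA, atpF, psbK, psbI and petG. With probe sets of low mean signal removed before the test (below the 40th percentile, which kept 42 of the 43), psbA was called higher and atpA, psbK, psbI, atpF and petG lower (limma adjusted p from 5.36e-05 for atpA to 0.0401 for psbI), where 30.2% of all probe sets were called, 14.7% higher and 15.5% lower. With the values as deposited psbA and ndhJ were called higher (7.83% of all probe sets), after quantile normalization ndhJ (8.27%), and on the spike-in scale atpA and petG were called lower (12.7%). Without the KIN10 array of experiment 1, which leaves no block, atpA and petG were called lower as well (0.62% of all probe sets). That fit has 1 KIN10 array, the one on which both genes stood low, and its spread comes from the 2 control arrays, so the KIN10 array is assumed to vary like them. The variance prior of the fit with the filter was estimated at 1311 degrees of freedom, and at 15.5 without the filter, so with the filter the standard errors follow a common trend and carry little of the disagreement between the experiments for a single gene. All 5 genes called lower with the filter had changes of opposite sign in the experiments.

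**Figure D1:**
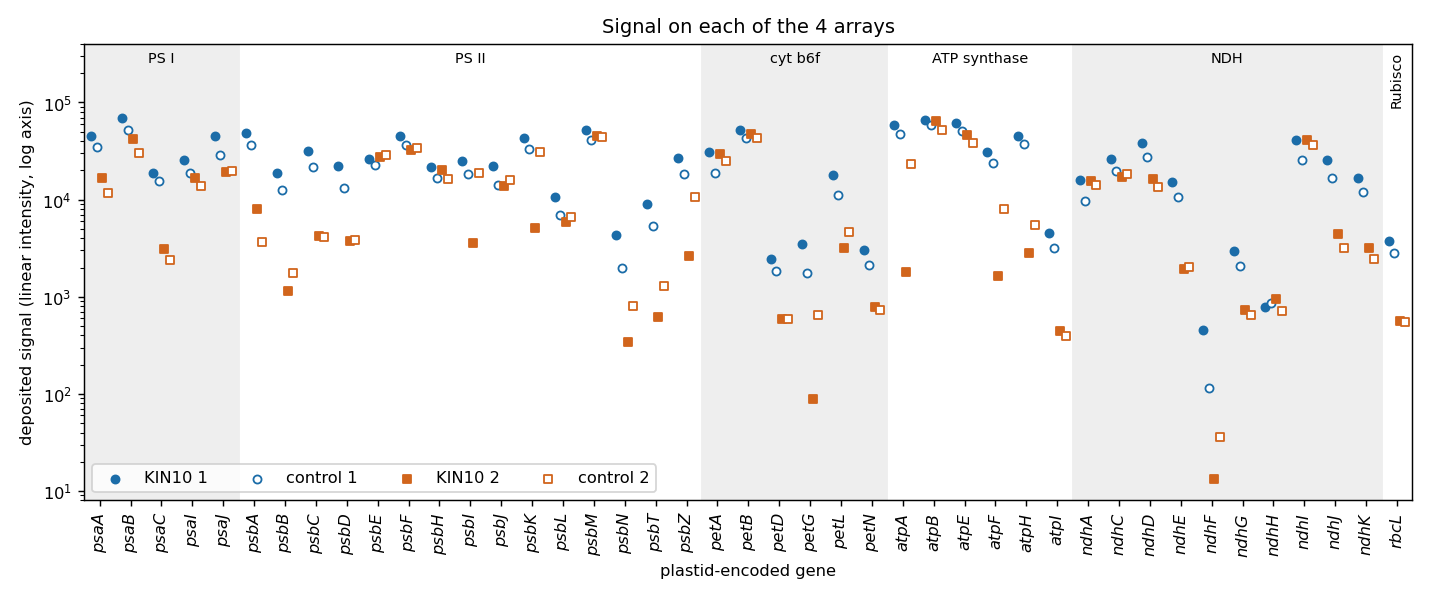
Deposited signal (linear intensity on a log axis) of the 43 genes on each array, with filled symbols for KIN10, open symbols for control DNA, circles for experiment 1 and squares for experiment 2. Within experiment 1 the KIN10 and control signals lie close together for most genes, whereas genes such as psbA, psaC and rbcL have far lower signals on both arrays of experiment 2, and atpA, petG and psbK stand low on the KIN10 array of experiment 2.

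The small mean changes hide a difference between the experiments. In experiment 1 the signal was higher with KIN10 for 42 of the 43 genes after median centring (97.7%, against 51.4% of all probe sets), for 41 after quantile normalization and for 42 as deposited, but for only 15 on the scale of the spike-in controls. The median change was 0.37, and the middle of the genes lay between 0.27 and 0.54 (quartiles). The SD over the genes was 0.32, against 1.10 over all probe sets and 0.21 over 26 other plastid-encoded genes. All probe sets include the dim ones, whereas 41 of the 43 genes lay above the array's median on all 4 arrays. Some lay near the top of the scale (psaB at 69795.6 on the KIN10 array of experiment 1, maximum 81268). Whether changes are compressed there was not tested. In experiment 2 the median was 0.35 and 12 genes lay below 0. The SD was 1.06, against 1.31 over all probe sets and 0.85 over the other plastid-encoded genes. Taken by themselves, the medians were alike on the centred scale only. In experiments 1 and 2 they were 0.46 and 0.03 as deposited, 0.44 and -0.01 after quantile normalization, and -0.08 and 0.06 on the spike-in scale. The medians of all probe sets moved as well. They were 0.03 and 0.13 centred, 0.12 and -0.19 as deposited, 0.04 and -0.03 after quantile normalization, and -0.43 and -0.17 on the spike-in scale. Centred, deposited and spike-in values differ by a constant per array, which shifts counts above 0. Only on the centred scale were such counts made over all probe sets. After centring, 31 of 43 genes were above 0 in experiment 2 (72.1%, against 55.9% of all probe sets). In that experiment 24 were above 0 on the spike-in scale, 22 with the values as deposited and 20 after quantile normalization. In both experiments the change was above 0 for 30 genes (69.8%, against 36.9% of all probe sets) and below 0 for none (29.7% of all probe sets), although on the spike-in scale these numbers were 5 and 9. Above 0 in both were 21 with the values as deposited and 18 after quantile normalization, with 0 below 0 in both. The signs were opposite for 13 (30.2%, against 33.4%).

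No gene was changed by at least 2-fold in the same direction in both experiments. In experiment 1, 2 genes were at least 2-fold higher (psbN and ndhF, with 12.6% of all probe sets past that fold) and 0 lower (14.0%). In experiment 2, 1 gene, psbA, was at least 2-fold higher (18.8% of all probe sets) and 7 were at least 2-fold lower (16.3%, against 14.2% of all probe sets): atpA, petG, psbK, psbI, atpF, psbZ and ndhF. Across the 43 genes the changes in the experiments had a Pearson r of -0.251, against 0.393 across all probe sets. The 43 span a narrower range in experiment 1 (SD 0.32, against 1.10), so the values of r are not alike. Of the genes far apart, ndhF (1.89 and -1.10) had signals of only 13.4 and 35.9 in experiment 2. The KIN10 signal of petG (0.89 and -2.55) was 88.5 there. How far the r rests on these genes was not tested. These genes share arrays and, in part, transcripts, so the values are descriptions.

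**Figure D2:**
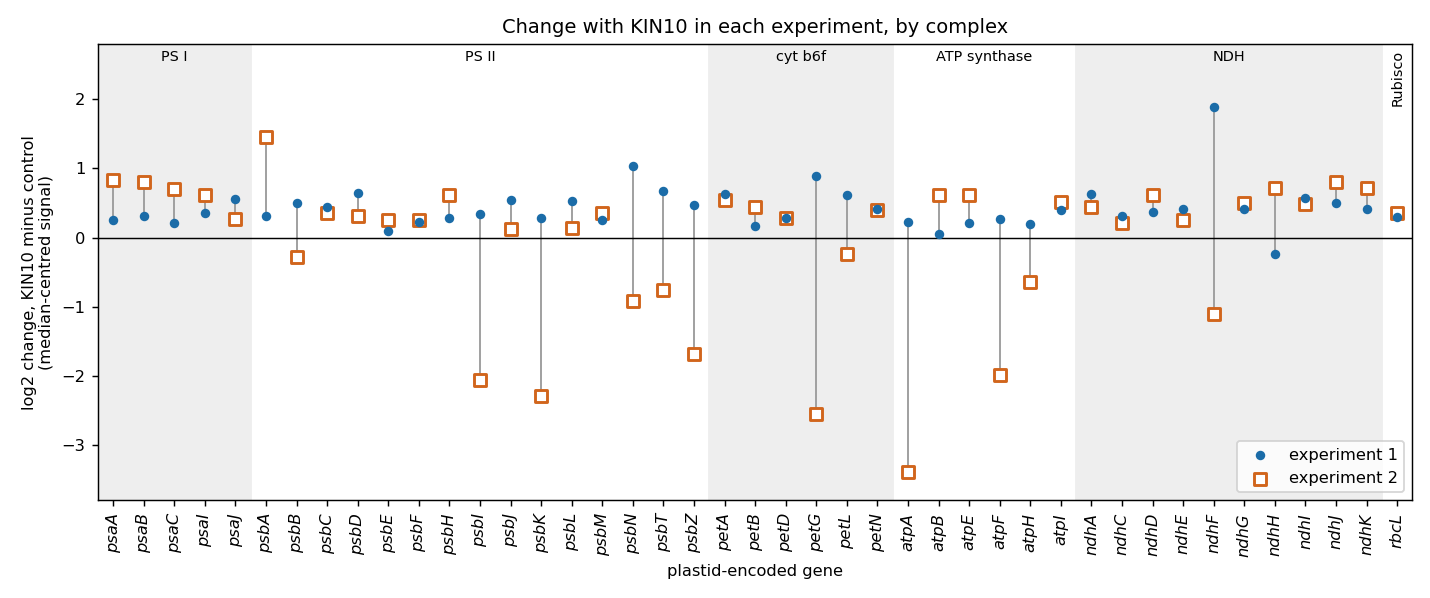
Log2 change of KIN10 minus control DNA (median-centred signal) for each gene, in experiment 1 (filled circles) and experiment 2 (open squares), grouped by complex. The experiment 1 values lie mostly between 0 and 1, and the experiment 2 values reach -3.39 for atpA.

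Photosystem I passes electrons to ferredoxin. All 5 of its plastid genes had changes above 0 in both experiments (4 of 5 as deposited or after quantile normalization and 0 on the spike-in scale), and none passed the test. Their median was 0.49, or 0.32 in experiment 1 and 0.70 in experiment 2. The paired proteins that hold the reaction centre come from psaA and psaB. For psaB the signals were 69795.6 and 41881.2 with KIN10, against 52387.8 and 29977.1 with control DNA in experiments 1 and 2, a log2 change of 0.56 ± 0.63 (SE, n = 2 arrays per group; limma adjusted p = 0.662). As deposited, the control signal of experiment 1 exceeded the KIN10 signal of experiment 2, but after centring both KIN10 arrays lay above both control arrays. For psaA the changes were 0.26 and 0.84. The smallest change was that of psaJ, a small membrane subunit, at 0.41 ± 0.48 (limma adjusted p = 0.673). Its signals were 45388.1 and 19116.9 with KIN10 and 28917.5 and 19807.1 with control DNA, so that in experiment 2 the KIN10 signal was the lower before centring. The gene for the iron-sulfur subunit on the stromal face, psaC, had changes of 0.21 and 0.70, and psaI, a small membrane subunit, had 0.36 and 0.61. The spike-in scale put the median of the complex at 0.11.

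Photosystem II splits water. Its 15 genes had a median change of 0.24, with medians of 0.45 in experiment 1 and 0.14 in experiment 2. All 15 were above 0 in experiment 1 (7 on the spike-in scale), and 9 in experiment 2 (5 on the spike-in scale, 4 as deposited or after quantile normalization). The most positive mean change of all 43 genes was that of psbA, which encodes the reaction centre protein D1, the photosystem II protein that is damaged by light and replaced most often. Its signals were 48491.8 and 8042.8 with KIN10, against 36718 and 3645.7 with control DNA, a log2 change of 0.89 ± 0.40 (SE, n = 2 arrays per group; limma adjusted p = 0.167). The change was 0.31 in experiment 1 and 1.46 in experiment 2, and both arrays of experiment 1 lay above both of experiment 2, so the groups overlap. It was called higher with the filter on low signals (limma adjusted p = 0.0343) and with the values as deposited (limma adjusted p = 0.0128).

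None of the genes for the other core subunits of photosystem II passed the test. For psbD, the gene of the partner protein D2, the changes were 0.65 and 0.31. The genes of the inner antenna proteins, psbC and psbB, had 0.45 and 0.35, and 0.50 and -0.28. The subunits of cytochrome b559, from psbE and psbF, had changes between 0.09 and 0.26.

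Of the small photosystem II proteins some went far apart between the experiments. The transcript of psbK, a small membrane subunit, gave 42664.4 and 5089.5 with KIN10 and 32819.2 and 30987.5 with control DNA, a mean log2 change of -1.00 ± 0.54 (limma adjusted p = 0.263). The KIN10 array of experiment 2 stood alone below the other 3 arrays, 4.88-fold lower than its control after centring, whereas in experiment 1 KIN10 was 1.22-fold higher. The neighbouring gene psbI, for a small subunit at the reaction centre, had the same pattern, with 25000.2 and 3616.6 with KIN10 and 18538.1 and 18842.3 with control DNA. Its mean change was -0.86 ± 0.46 (limma adjusted p = 0.259), made of 0.34 in experiment 1 and -2.06 in experiment 2. For psbZ, a small subunit next to the inner antenna, the signals were 27005.1 and 2635.9 with KIN10 and 18334.5 and 10519.8 with control DNA. Its changes were 0.47 and -1.68, with a mean of -0.60 ± 0.42 (limma adjusted p = 0.416).

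The gene psbN, which is named with photosystem II but is known from tobacco to act in its assembly, had the largest experiment 1 change of the complex. Its signals were 4286.2 and 344 with KIN10 and 1955 and 804.9 with control DNA, with changes of 1.04 and -0.91 and a mean of 0.07 ± 0.35 (limma adjusted p = 0.941). The adjacent psbT, for a small subunit, had changes of 0.68 and -0.75. The other small-subunit genes, psbH, psbJ, psbL and psbM, had changes between 0.13 and 0.62 in both experiments.

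The cytochrome b6f complex links the photosystems. Its 6 genes had a median change of 0.30, or 0.51 in experiment 1 and 0.35 in experiment 2. Cytochrome f comes from petA, whose signals were 31157.7 and 29339.6 with KIN10 and 18979.4 and 25006.4 with control DNA. Both KIN10 signals lay above both control signals as deposited, but not after centring, and the change of 0.59 ± 0.47 did not pass the test (limma adjusted p = 0.498). The genes for cytochrome b6 and subunit IV, petB and petD, had changes from 0.17 to 0.44 in the 2 experiments, and that of the small subunit petN had 0.42 and 0.40. The petG transcript, for a small subunit needed for the complex to be stable, went apart between the experiments. Its signals were 3473.5 and 88.5 with KIN10, against 1759.4 and 646.1 with control DNA. The change was 0.89 in experiment 1 and -2.55 in experiment 2, with a mean of -0.83 ± 0.51 (limma adjusted p = 0.346). The value of 88.5 is under the 40th percentile of that array, 127.9. The small-subunit gene petL, next to it, had 0.61 and -0.24.

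The ATP synthase had the lowest median of the 6 groups, 0.06, with 0.22 in experiment 1 and -0.07 in experiment 2. Its 3 genes for the catalytic head did not move together. The alpha subunit gene atpA had the most negative mean change of all 43, with signals of 59321.8 and 1793.1 with KIN10 and 47708.6 and 23424.8 with control DNA. The KIN10 array of experiment 2 stood 10.5-fold below its control, while in experiment 1 KIN10 was 1.17-fold higher. The mean of -1.58 ± 0.60 had a limma adjusted p = 0.0946, the lowest of the 43, and over the alternative settings that p ran from 5.36e-05 (with the filter on low signals) to 1. Without the KIN10 array of experiment 2 its log2 change was 0.48, and without that of experiment 1 it was -3.65. The genes of the beta and epsilon subunits, atpB and atpE, had 0.05 and 0.62, and 0.21 and 0.61.

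Among the genes of the membrane part of the ATP synthase, atpF, for the stalk subunit b, had signals of 30753.3 and 1626.3 with KIN10 and 24029.8 and 8073.6 with control DNA. Its changes were 0.27 and -1.99, with a mean of -0.86 ± 0.42 (limma adjusted p = 0.208). The gene of the c subunit of the rotating ring, atpH, had 0.20 and -0.64. In contrast, atpI, for subunit a, had 0.40 and 0.51. Its signals were 4482 and 446.9 with KIN10, against 3180.7 and 391.9 with control DNA, and the mean change of 0.46 ± 0.25 did not pass the test (limma adjusted p = 0.277).

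The NDH complex had a median change of 0.47, or 0.42 in experiment 1 and 0.49 in experiment 2, and 8 of its 10 genes were above 0 in both experiments (6 as deposited, 5 after quantile normalization and 3 on the spike-in scale). The stromal arm is built in part from the products of ndhH, ndhI, ndhJ and ndhK. Of these ndhJ had the largest change, with signals of 25440.7 and 4424.1 with KIN10 and 16876.6 and 3139.9 with control DNA. Its change was 0.66 ± 0.31, with 0.50 and 0.81 in the experiments (limma adjusted p = 0.184). It was called higher with the values as deposited (limma adjusted p = 0.0279) and after quantile normalization (limma adjusted p = 0.0483). The smallest change was that of ndhH, with 779.7 and 945.6 with KIN10 and 860.8 and 714.3 with control DNA, or 0.25 ± 0.30 (limma adjusted p = 0.697). It was the 1 gene of the 43 that was below 0 in experiment 1 (-0.23), and in experiment 2 it had 0.72. For ndhK the changes were 0.41 and 0.72, and for ndhI 0.58 and 0.48.

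The membrane arm genes ndhA, ndhC, ndhD, ndhE and ndhG had changes between 0.21 and 0.63 in both experiments. The exception was ndhF, with signals of 458.8 and 13.4 with KIN10 and 116.3 and 35.9 with control DNA. Its changes were 1.89 and -1.10, and the mean of 0.39 ± 0.87 had a limma adjusted p = 0.852. It was the 1 gene of the 43 that did not pass the filter on low mean signal.

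The large subunit of Rubisco, the enzyme of carbon fixation, is encoded by rbcL. Its signals were 3710 and 567.2 with KIN10, against 2839.1 and 554.9 with control DNA. The changes of 0.30 and 0.35 were alike in the experiments, and the mean of 0.32 ± 0.25 did not pass the test (limma adjusted p = 0.473). On the spike-in scale it was -0.05. The signals of experiment 1 were all above those of experiment 2, so the groups overlap.

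Signals of many of these genes differed widely between the experiments. After centring, control array 2 differed from control array 1 by -2.82 to 1.06 on the log2 scale, with a median of -0.53 and an SD of 1.11. KIN10 array 2 differed from KIN10 array 1 by -4.37 to 1.20, with a median of -1.13 and an SD of 1.61. Over all probe sets the SD was 1.20 between the control arrays and 1.44 between the KIN10 arrays. For 33 of the 43 genes the mean change with KIN10 was smaller than the difference between the control arrays. The measures are unlike, since the mean averages 2 experiments, where opposite signs cancel, and the control difference is between single arrays. The same share was not counted over all probe sets, so the count is not a trait of these genes. The largest differences between the control arrays were -2.82 for psbA, -2.51 for atpI and -2.33 for psbB, and the largest in the other direction were 1.06 for ndhA and 1.04 for ndhI. Plants, DNA, operator, growth chamber and array facility changed together between the experiments and cannot be told apart. The KIN10 arrays both lay above both control arrays for 6 genes after centring (atpE, ndhD, psaB, psaI, psaJ and psbL), which is 14.0% of the 43, against 17.3% of all probe sets. They lay below for 0 genes, against 16.5% of all probe sets.

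The low values of experiment 2 lay partly side by side on the plastid genome. In the order of protein-coding genes (RefSeq table of assembly TAIR10.1), psbK, psbI, atpA, atpF and atpH follow each other and had changes of -2.29, -2.06, -3.39, -1.99 and -0.64, and the next gene, atpI, had 0.51. A further run was psbB, psbT and psbN, with -0.28, -0.75 and -0.91, between clpP at 0.74 and psbH at 0.62. Elsewhere petL and petG had -0.24 and -2.55, psaJ had 0.27, and the ribosomal protein genes rpl33 and rps18 that follow had -2.83 and -1.20. Other low values stood alone. The gene psbZ (-1.68) lay between psbC (0.35) and rps14 (0.46), and ndhF (-1.10) lay next to rpl32 (0.17). Of the genes that are not among the 43, rpoB (-0.22), rpoA (-0.15), rpl14 (-0.67) and rps19 (-0.22) were below 0 on their own, and rpl20 (-0.16) followed rps18.

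**Figure D3:**
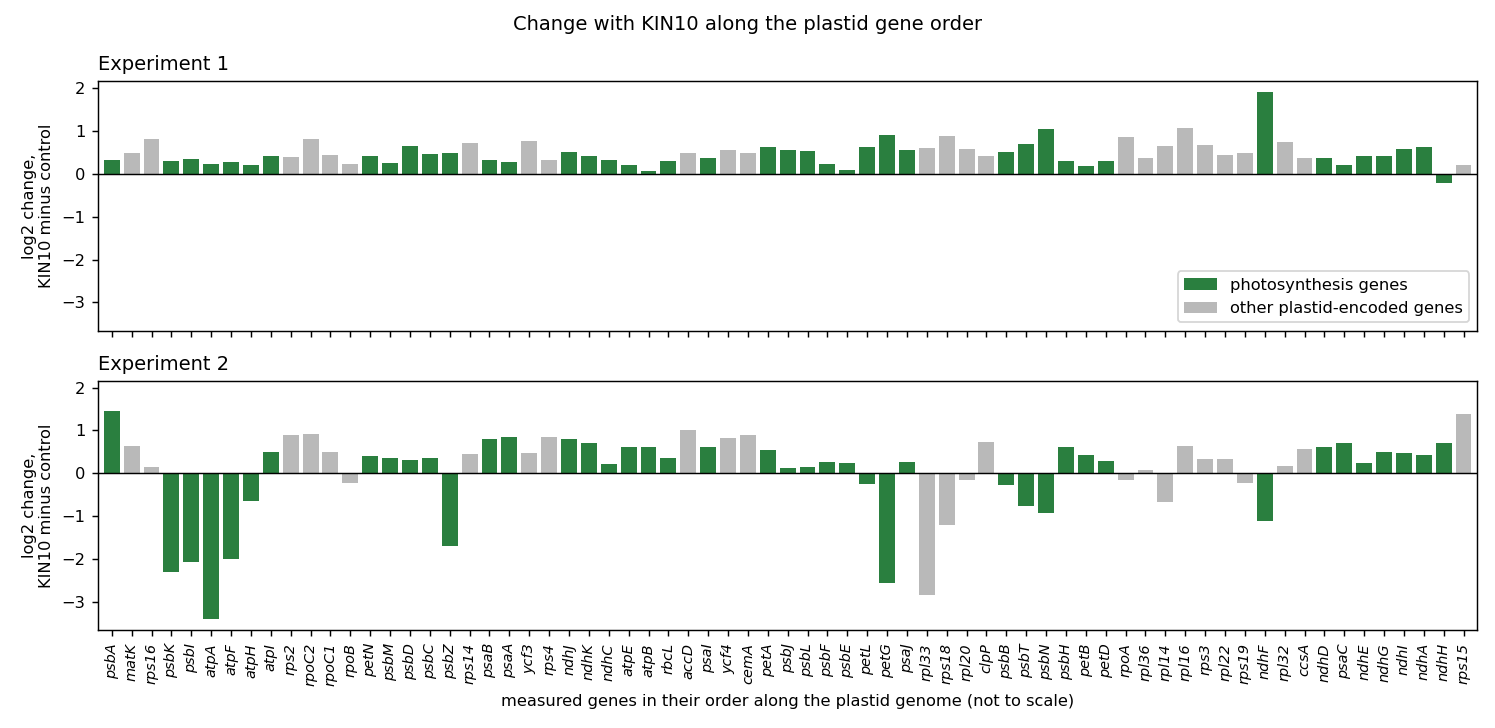
Log2 change of KIN10 minus control DNA for the 69 measured plastid genes in their order along the plastid genome (not to scale), in experiment 1 above and experiment 2 below. Green bars are the photosynthesis genes and grey bars the other plastid-encoded genes. In experiment 2 negative bars are scattered along the genome, and the lowest are atpA (-3.39), rpl33 (-2.83) and petG (-2.55), while in experiment 1 the only negative bar is ndhH (-0.23).

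Genes known to share a transcript did not always share a change. Of the 43 genes 34 fall into 10 such groups, which were set after the values were seen. In experiment 2 the members of 6 groups lay within 0.5 of each other on the log2 scale. How often other sets of plastid genes lie that close was not counted, so the number cannot say whether shared transcripts change together. The group of psbD and psbC, which is among the 6, does not hold psbZ, next to psbC, at -1.68. In the group of psaA and psaB the changes were 0.84 and 0.80, in that of atpB and atpE 0.62 and 0.61, in that of psbE, psbF, psbL and psbJ between 0.13 and 0.26, and in that of the 7 genes from ndhH to ndhD between 0.25 and 0.72. The group of psbK and psbI had -2.29 and -2.06. The group of atpI, atpH, atpF and atpA, in contrast, ran from 0.51 for atpI, its first gene, to -3.39 for atpA, its last. The group of psbB, psbT, psbH, petB and petD ran from -0.75 to 0.62, and that of petL, petG and psaJ from -2.55 to 0.27. In experiment 1 the same 3 groups had spreads of 0.20, 0.51 and 0.33. The group of ndhC, ndhK and ndhJ ran from 0.21 to 0.81 in experiment 2.

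The other plastid-encoded genes and the nuclear subunits gave the nearest comparisons, and differences between these groups were not tested. The 26 other plastid genes, for ribosomal proteins, RNA polymerase and other functions, had a median change of 0.49, with 0.52 and 0.46 in experiments 1 and 2. All 26 were above 0 in experiment 1 (17 on the spike-in scale), and 7 were below 0 in experiment 2. Of the 26, 2 rose, rpl16, a ribosomal protein gene (0.84, limma adjusted p = 0.0336), and rpoC2, for a subunit of the plastid RNA polymerase (0.87, limma adjusted p = 0.0455), which is 7.69% of them, against 7.43% of all probe sets. As deposited 5 were higher (7.83% of all probe sets), after quantile normalization 4 (8.27%) and with the filter 3 (14.7%). With the filter 1 was lower (15.5% of all probe sets), and on the spike-in scale 1 (12.7%). On the spike-in scale, without the block, without the intensity trend or with any 1 array left out, 0 were higher (limma).

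Of 35 listed nuclear genes for subunits of the same complexes, 7 had a single-gene probe set. In the main setting 14.3% of these were called higher, against 7.43% of all probe sets, of which 36.9% were above 0 in both experiments. All 7 had changes above 0 in both experiments (6 on the spike-in scale), with a median of 0.66, and 1 rose, PSAN, a subunit of photosystem I (1.59 ± 0.30 SE, limma adjusted p = 0.00161), which was not called without the block, without the intensity trend, or with KIN10 array 2 or either control array left out. The gene of the gamma subunit of the ATP synthase, ATPC1, had 0.91 and 0.93 in experiments 1 and 2 (limma adjusted p = 0.101), where the plastid gene atpA had 0.22 and -3.39. The NDH genes NdhL and NdhN had 0.66 and 0.61 (limma adjusted p = 0.110 and 0.123). Other settings added calls (limma). Of all probe sets 14.7% were called higher with the filter, 8.27% after quantile normalization, 8.21% with a robust prior and 7.83% as deposited. ATPC1 was called higher with the filter, after quantile normalization, with a robust prior and as deposited. NdhL was called higher with the filter, and the photosystem I gene PSAE-1 after quantile normalization and as deposited. Of 20 listed nuclear genes for plastid transcription 1 was measured, AT5G15700, a phage-type RNA polymerase gene, at -0.57 (limma adjusted p = 0.313). None of the 9 for plastid RNA maturation was measured.

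**Figure D4:**
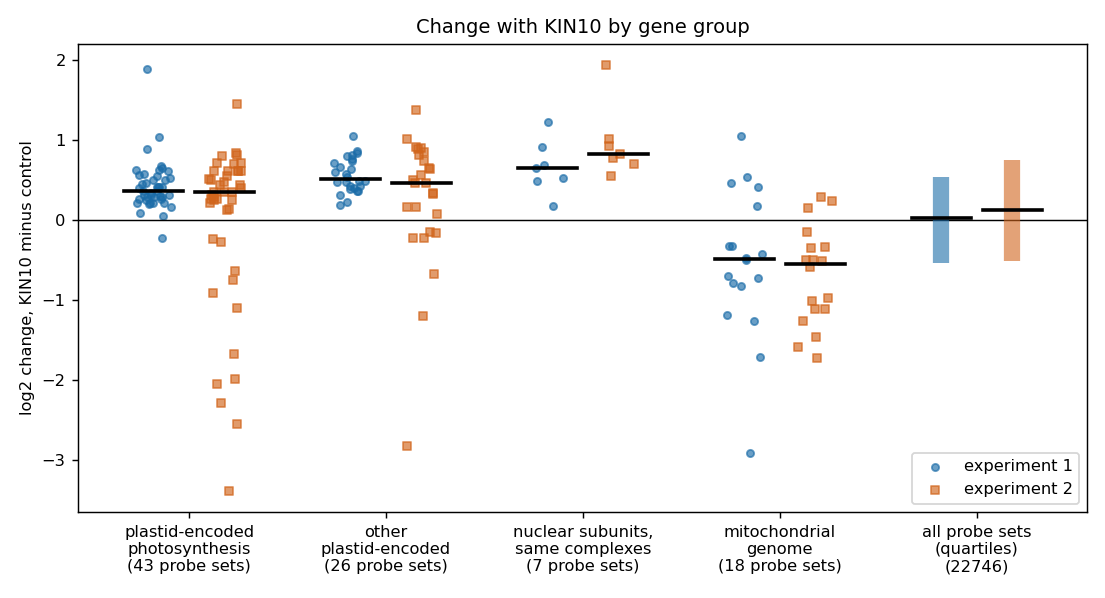
Log2 change of KIN10 minus control DNA in experiment 1 (blue circles) and experiment 2 (orange squares) for 4 gene groups, with black bars at the medians, and the quartiles and medians of all 22746 probe sets at the right. The plastid groups have medians between 0.35 and 0.52 and a tail of low values in experiment 2, and the mitochondrial probe sets have medians of -0.49 and -0.55.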

How the data were processed

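RNA from 4 protoplast samples was measured on Affymetrix arrays. The authors deposited 1 linear intensity value per probe set and array. The submitters' processing notes name GCOS 1.0, whose settings were not found in the labels. The 2% trimmed mean of the deposited intensity was 1500.13 to 1500.15 on every array, so the arrays share a scale set by 1 factor each. With arrays, precision is limited by their number.

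Signals were turned into log2 values (1 value at or below 0 became the smallest positive one of its array). The 64 control probe sets were left out, and the median of the remaining 22746 was subtracted on each array. All of them entered limma 3.58.1 under R 4.3.3, with lmFit, an experiment block, and eBayes with a trend on intensity. That leaves 1 residual degree of freedom. Calls were made at a Benjamini-Hochberg adjusted p under 0.05. The fit was tested on simulated data with a spread and a number of changed probe sets set by hand. There the share of false calls was above the threshold. The design text describes the arrays of 1 number as a pair, and their deviations from the group means had a Pearson r of 0.495 across probe sets.

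Names came from the platform annotation, updated through the RefSeq table of TAIR10.1 (13436 of 13513 single names matched). The 18 mitochondrial probe sets, for 11 genes, were matched by symbol only. Named in full were, per complex, the genes of largest and smallest change, and those of opposite sign with a 2-fold change in an experiment. The members and lists were chosen with earlier results of these data known, and the groups of genes that share a transcript after their values were seen. Alternatives were no block, a filter at the 40th percentile, deposited, spike-in or quantile scales, an offset of 16, other priors, and each array left out.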

Additional observations from a re-analysis of the deposited data

How the results depend on the processing

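With 2 arrays per group and 1 residual degree of freedom, the calls depend on how limma shares variance. Without an intensity trend 0 of all 22746 probe sets were called, and without the replicate block 49, while 0 of the 43 genes were called in either (limma); the lowest adjusted p with the block, 0.0946 for atpA, was 0.917 without the block. The median, 0.34 with or without the block, cannot move in this balanced design. The number called higher was 1 with the filter at the 40th percentile, 1 after quantile normalization and 2 with the values as deposited, and the number called lower was 5 with the filter and 2 on the spike-in scale (atpA and petG). With 1 array left out, 0 were called higher and from 0 to 2 lower, the 2 being atpA and petG without KIN10 replicate 1. The causes were not tested beyond the prior given above.

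The median of the 43 was 0.22 after quantile normalization, 0.22 as deposited and -0.04 on the spike-in scale, on which the median of all probe sets was -0.31. With 1 array left out it ran from -0.16 to 0.64. By complex, the spike-in scale gave 0.11 for photosystem I, -0.13 for photosystem II, -0.08 for cytochrome b6f, -0.32 for the ATP synthase, 0.10 for the NDH complex and -0.05 for rbcL. Quantile normalization gave -0.21 for the ATP synthase and 0.30 for the NDH complex. As deposited, the NDH complex had 0.36 and rbcL 0.21. With 1 array left out the ranges were 0.30 to 0.71 for photosystem I, -0.33 to 0.30 for photosystem II, -0.19 to 0.89 for cytochrome b6f, -1.25 to 0.64 for the ATP synthase, 0.05 to 0.87 for the NDH complex and -0.60 to 1.24 for rbcL. In these fits the experiments are no longer balanced, so the difference between them enters the change. The sign of the mean change turned for 15 of 43 genes on the spike-in scale, 3 after quantile normalization, 2 as deposited and 0 with the filter, the offset, no trend, the robust prior or no block. None that turned was called.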

Other observations

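Probe sets of the mitochondrial genome, the other organelle with its own genes, were also measured. After centring, 11 of 18 were below 0 in both experiments (29.7% of all probe sets) and 1 was above 0 in both (36.9%). As 7 of the 18 are of nad1, they are not separate genes. Outside nad1, those below 0 in both were matR, nad9, nad6, nad2 and a nad5 probe set. Signals of matR and nad2 fell to 35.6 and 19.2 on KIN10 array 2. Signs were opposite for nad4L, nad4, cox1, cox2 and another nad5 probe set. Of the 18, which stand for 11 genes, 4 fell and 0 rose (22.2% lower, against 7.48% of all probe sets; limma), with a median log2 change of -0.60, or -0.49 and -0.55 in experiments 1 and 2. All 4 calls were among the 7 probe sets of nad1, a subunit gene of respiratory complex I, with log2 changes from -1.27 to -0.91, so they share a gene, and 0 were called without the block or the intensity trend, and 0 to 1 with 1 array left out (limma). The other nad1 probe sets had log2 changes from -1.11 to 0.10 and were not called. The cytochrome oxidase genes cox1 and cox2 had -0.04 and -0.09. The probe sets carry mitochondrial names only by symbol, and near-identical copies in the nuclear genome cannot be told apart from them here.

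The probe set of ndhB, a gene with a copy in each inverted repeat of the plastid genome, had signals of 1667.9 and 198.5 with KIN10 and 949.6 and 393.8 with control DNA. Its changes were 0.72 and -0.67 in experiments 1 and 2, with a mean of 0.03 ± 0.36 (limma adjusted p = 0.979).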
